A study of Homo sapiens with 4 samples.

Results

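The 10 genes described here are ligands of the transforming growth factor beta (TGF-beta) family and the follistatins that bind some of them, measured after TGF-beta treatment of Huh-7, an established line of human hepatocellular carcinoma. They are TGFB1, TGFB2, TGFB3, LEFTY2, GDF15, INHBA, INHBC, INHBE, FST and FSTL3, and every probe set whose platform annotation gives 1 of these symbols was taken. That gave 18 of the 22215 probe sets measured, of which the 19724 that name 1 gene were fitted. It gave 10 genes of the 12165 that could be named. The genes were picked by family with their differences in this comparison already known, so their differences, and the calls that the fit over all genes makes among them, are given as a description only, and nothing is supported with them. The treated group consisted of 2 arrays of cells given TGF-beta and harvested 48 h later. It was compared with 2 arrays of untreated cells of the same line, and both groups were kept in Dulbecco's medium that contained 10% fetal bovine serum inactivated by heat. For the added TGF-beta, neither isoform nor dose is given in the sources used here. Huh-7 is 1 tumour line, the labels do not say that arrays 1 and 2 of a group came from separate cultures, and p-values therefore measure only the spread between these arrays, which may be technical.

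Most ligands of this family are secreted as dimers, cut from larger precursors. Most signal through paired type I and type II receptor kinases that phosphorylate SMAD transcription factors. TGF-beta stays bound to its own propeptide until it is activated, whereas activins, dimers of inhibin beta subunits, are held in check outside the cell by follistatins. In the liver the family is known for restraining hepatocyte growth and driving fibrosis, and hepatocytes are a main source of the activin subunits encoded by INHBC and INHBE. What was measured here is the transcripts of the cells' own ligand genes, which are distinct from the TGF-beta protein added to the medium.

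Each value is the linear intensity of a probe set, in arbitrary units of brightness, and differences are in log2 units with the untreated cells subtracted from the TGF-beta cells. Intensities of different probe sets depend on the probes, so folds are formed only within a probe set, and a level is otherwise placed only as dim or bright, by the quartiles of all probe sets or the readings of markers of other cell types. Median intensities were 50.7 to 51.0 on the TGF-beta arrays and 50.1 to 50.3 on the untreated arrays. All 9 hepatocyte markers analysed were above the upper quartile of the arrays, and all 6 endothelial markers were below the median. Of the hepatocyte markers 2 were called, in opposite directions, where 1.22% of all genes were called. APOA1 was higher, at 0.74 ± 0.11 in log2 units (SE, limma adjusted p = 0.0378). TTR was lower, at -0.63 ± 0.11 (adjusted p = 0.0470). Of 8 fibroblast and stellate cell markers 6 were below the median, with COL1A1 at 39.9 to 58.1, and the exception above the upper quartile was LUM, at 6777 to 7292 in TGF-beta cells and 6692 to 7184 in untreated cells. Of 7 leukocyte markers 6 were below the median, and PTPRC, the defining pan-leukocyte marker, lay at 28.3 to 31.7 on the 4 arrays. The summed leukocyte markers were 325.2 to 339.5 in TGF-beta cells and 261.6 to 271.6 in untreated cells. CD14, which hepatocytes also make, stood at 146.4 and 156.6 in TGF-beta cells and at 75.6 and 75.4 in untreated cells and was called higher (limma adjusted p = 0.0167). Without CD14 the other 6 summed to 178.8 and 182.9 in TGF-beta cells and 186.0 and 196.2 in untreated cells. That sum was lower after TGF-beta, but CD14 alone was called, and the differences of PTPRC and CD3E were positive. The other 6 are the ones below the median, and no direction is read from their sum. The part of these markers in the results was not tested.

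In the fit over all 12165 genes, 2 of the 10 genes, LEFTY2 and GDF15, were called higher after TGF-beta and 0 lower, where 0.658% of all genes were called higher and 0.567% lower. A call is an adjusted p under 0.05 in limma after Benjamini-Hochberg adjustment over all genes. Each SE is limma's moderated one, with a variance drawn partly from all other genes. It can therefore be smaller or larger than the spread of a gene's own arrays would give. The 10 differences ran from -0.17 for INHBC to 1.01 for LEFTY2, with 7 of 10 positive and a median of 0.32. Over all 12165 genes, 5907 differences were positive and the median was -0.01. On 5 genes both TGF-beta arrays lay above both untreated arrays, as on 23.3% of all genes, and on 2 genes they lay below, as on 25.9%. Because the genes were chosen with these values known, nothing is read from the shares. In RNA from whole cultures, fewer cells with a transcript and less of it per cell cannot be told apart.

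**Figure D1:**
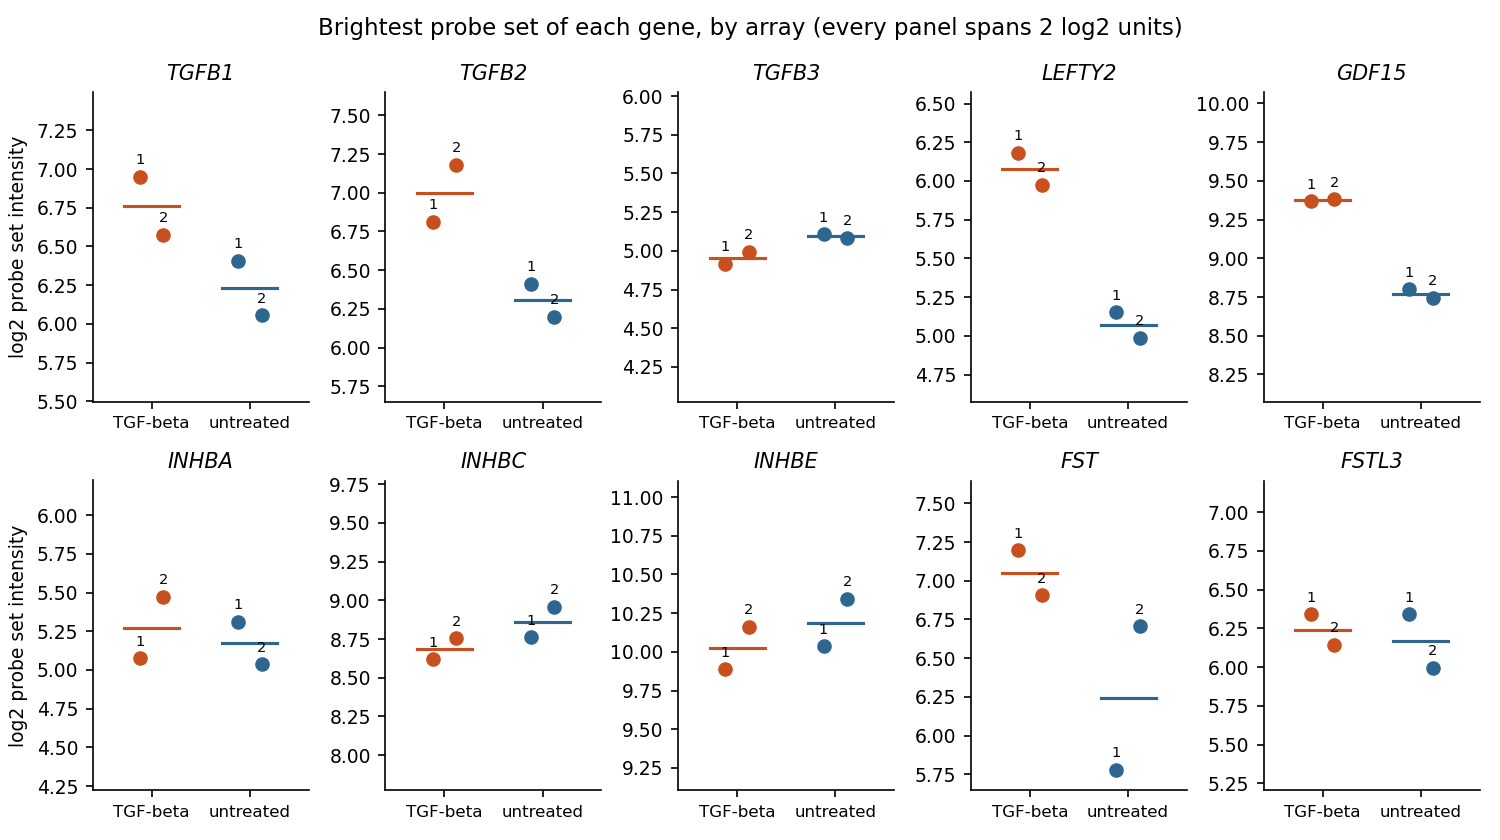
The y axes give the log2 intensity of the brightest probe set of each of the 10 genes, each panel spanning the same range. Points are single arrays numbered by replicate, with TGF-beta arrays on the left in orange and untreated arrays on the right in blue, and lines are group means. The arrays of the groups are furthest apart in LEFTY2 and the TGF-beta arrays of GDF15 are the closest pair, while the untreated arrays of FST differ by more than the group means do.

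LEFTY2 encodes a secreted protein that blocks NODAL, a ligand acting through activin receptors. Its 1 probe set, 206012_at, read 72.7 and 62.9 in TGF-beta cells, against 35.6 and 31.7 in untreated cells. The groups did not overlap, and the lower TGF-beta array was well above the higher untreated one. The log2 difference was 1.01 ± 0.12 (SE, n = 2 per group), a 2.01-fold higher level, and the replicates were 0.21 apart in TGF-beta cells and 0.17 apart in untreated cells. The untreated readings lie in the range of the endothelial markers, 19.9 to 51.8, and changes near that range can be understated. LEFTY1, a neighbouring and nearly identical gene, read 47.4 and 36.9 in TGF-beta cells and 39.4 and 33.9 in untreated cells, so its groups overlapped. Its difference was 0.19 ± 0.15 (SE, 95% interval -0.16 to 0.54). Whether its transcript adds to the LEFTY2 reading was not tested. NODAL itself lay at 24.5 and 30.2 in TGF-beta cells and at 27.4 and 30.3 in untreated cells, below the lower quartile of all probe sets.

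GDF15 is a divergent family member that cells secrete under stress and that acts on the brain receptor GFRAL. Its bright probe set, 221577_x_at, read 661.4 and 667.2 in TGF-beta cells, against 445.6 and 429.2 in untreated cells. The groups did not overlap. Replicates were 0.01 apart in TGF-beta cells and 0.05 apart in untreated cells on the log2 scale, and the groups stood 0.60 ± 0.10 apart (SE, n = 2 per group), a 1.52-fold higher level. A second probe set, 221576_at, was below the lower quartile, with 24.7 and 24.8 in TGF-beta cells and 23.8 and 22.9 in untreated cells, a difference of 0.09 ± 0.10 (SE). The x in the first name marks a probe set with probes that can also match other transcripts. Without either TGF-beta array the fit called 0 of the 10 genes and 0 of all genes (limma, 1326 and 1563 genes at an unadjusted p under 0.05), although LEFTY2 then differed by 0.90 and 1.11 and GDF15 by 0.61 and 0.60. The call of GDF15 was also lost under quantile normalization, where its difference was 0.62, and when genes under the lower quartile of brightness were left out or every probe set was its own row, where it stayed at 0.60. With the mean of both its probe sets the difference was 0.34 and the call was lost as well.

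TGFB1, TGFB2 and TGFB3 encode the TGF-beta isoforms, which share the same receptors, although TGF-beta 2 needs the co-receptor betaglycan (TGFBR3) for tight binding. For TGFB2 the brightest probe set, 209909_s_at, read 112.3 and 145.0 in TGF-beta cells, against 85.1 and 73.5 in untreated cells. The groups did not overlap, and the difference of 0.69 ± 0.15 (SE, n = 2 per group) exceeded the gaps between replicates, 0.37 in TGF-beta cells and 0.21 in untreated cells. The next brightest, 220407_s_at, read 65.3 and 69.5 in TGF-beta cells and 62.3 and 70.7 in untreated cells, groups that overlap, with a difference of 0.02 ± 0.12 (SE). The other probe sets of TGFB2, both below the lower quartile, gave 0.25 ± 0.11 and -0.16 ± 0.12 (SE). TGFB2 was not called in the fit as reported. It was called at the same difference when the variance was allowed to follow the level, and without untreated array 1, where its difference was 0.80 and the untreated cells were a single array assumed to vary like the TGF-beta arrays.

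TGFB1, the isoform that platelets and immune cells make in quantity, read 123.8 and 95.4 in TGF-beta cells on 203085_s_at, against 84.9 and 66.5 in untreated cells. The groups did not overlap, but the lower TGF-beta array and the higher untreated array were close, and the difference of 0.53 ± 0.17 (SE, n = 2 per group) stood beside gaps between replicates of 0.38 in TGF-beta cells and 0.35 in untreated cells. The other TGFB1 probe set, 203084_at, was dim, at 29.9 and 30.6 in TGF-beta cells and 31.2 and 31.1 in untreated cells, a difference of -0.04 ± 0.10 (SE). TGFB3 had 1 probe set, 209747_at, which read 30.2 and 31.9 in TGF-beta cells and 34.5 and 33.9 in untreated cells. Both TGF-beta arrays were the lower ones, by 0.14 in log2 units (SE 0.10), at readings like those of the endothelial markers. Neither gene was called.

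Activins and inhibins are built from beta subunits. INHBA encodes the subunit of activin A. Its brighter probe set, 210511_s_at, read 33.7 and 44.4 in TGF-beta cells and 39.7 and 32.8 in untreated cells, a difference of 0.10 ± 0.16 (SE, n = 2 per group). The other one, 204926_at, had a difference of -0.09 ± 0.11 (SE). Groups overlapped on both, and both lay below the median of all probe sets. The subunits of the liver, by contrast, were above the upper quartile. INHBC read 393.6 and 431.9 in TGF-beta cells and 434.3 and 497.7 in untreated cells on 207688_s_at, a difference of -0.17 ± 0.12 (SE, n = 2 per group). Here both TGF-beta arrays were lower, the nearest arrays being almost equal. INHBE read 947.9 and 1145.1 in TGF-beta cells and 1049 and 1298.3 in untreated cells, so the groups overlapped, with a difference of -0.16 ± 0.15 (SE). In both genes array 2 was the brighter one of each group. The dim second probe set of INHBC, 207687_at, gave 0.09 ± 0.11 (SE). The remaining partners were INHA, the inhibin alpha subunit, at 0.03 ± 0.12 (SE, 95% interval -0.24 to 0.30), and INHBB, the subunit of activin B, at 0.55 ± 0.43 (95% interval -0.47 to 1.57). INHBB read 343.2 and 122.7 in TGF-beta cells and 111.4 and 176.4 in untreated cells, so a single TGF-beta array stood above the others and the groups overlapped. Neither was called.

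Follistatins wrap around activins and keep them from their receptors. FST encodes follistatin, and its brighter probe set, 204948_s_at, read 146.8 and 120.1 in TGF-beta cells, against 54.9 and 104.4 in untreated cells. The groups did not overlap, yet the untreated arrays differed from each other by 0.93 in log2 units, more than the group difference of 0.81 ± 0.27 (SE, n = 2 per group). FST was not called in the fit as reported. The difference was 0.35 without untreated array 1 and 1.27 without untreated array 2. FST was called in the second case, which rests on the lower untreated array alone, assumed to vary like the TGF-beta arrays. The other probe set, 207345_at, had a difference of 0.18 ± 0.14 (SE), with overlapping groups. FSTL3 encodes a related protein that also binds activins and myostatin. It read 81.1 and 70.7 in TGF-beta cells and 81.0 and 63.8 in untreated cells, groups that overlap, with a difference of 0.08 ± 0.15 (SE).

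**Figure D2:**
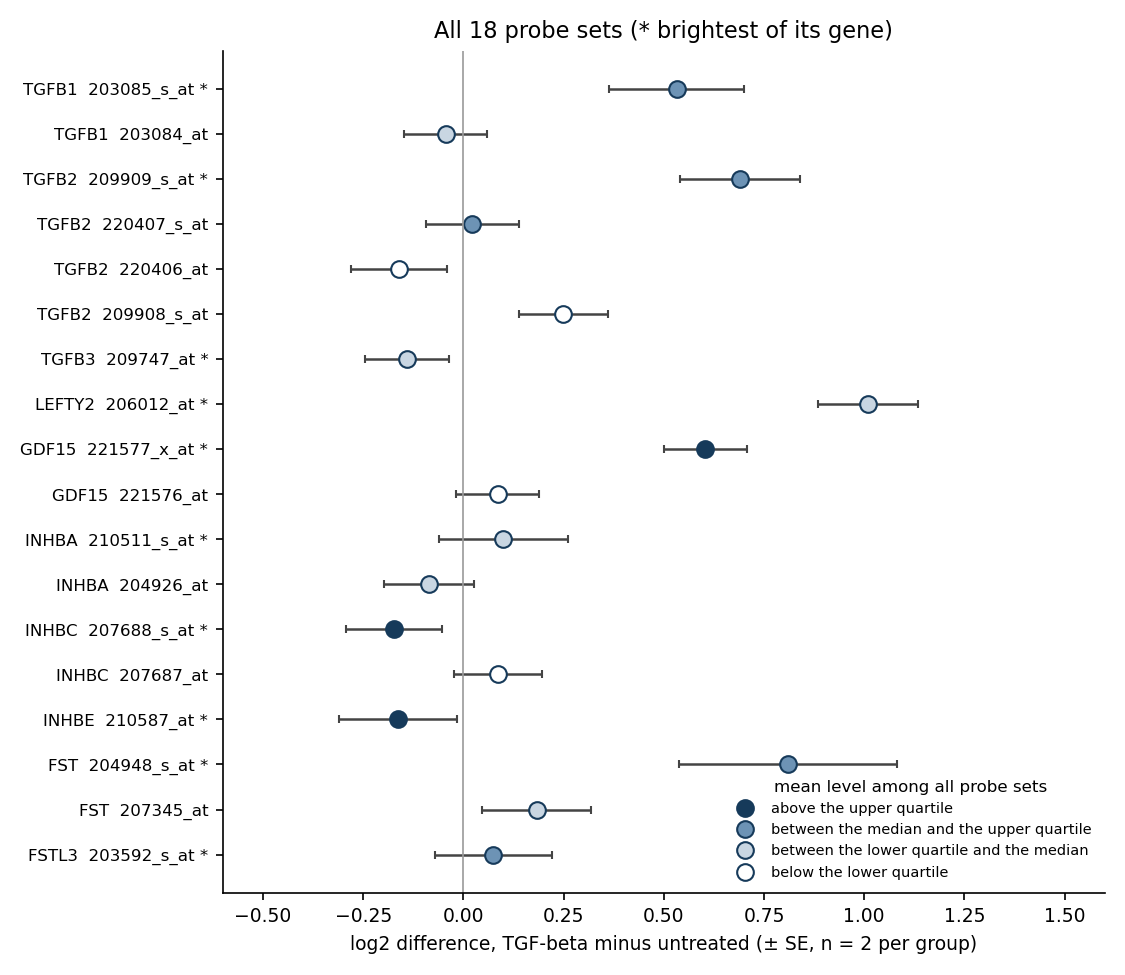
The x axis gives the log2 difference of each of the 18 probe sets, TGF-beta minus untreated. Bars are 1 moderated SE of limma (n = 2 per group), and the fill gives the mean level of the probe set among all probe sets. The positive differences above 0.5 are those of the brightest probe sets of LEFTY2, FST, TGFB2, GDF15 and TGFB1, and the dimmer probe sets of the same genes lie between -0.16 and 0.25.

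Across the 18 probe sets, 1 was called when every probe set was tested as its own row, that of LEFTY2, where 0.426% of all 19724 probe sets were called higher. Of the 18, 7 had both TGF-beta arrays above both untreated arrays and 3 below, beside 22.6% and 24.8% of all probe sets. Of the 6 genes with several probe sets, TGFB1, TGFB2, INHBA and INHBC had probe sets of opposite sign, and GDF15 and FST did not. The 8 probe sets that did not represent their gene had 5 positive differences, beside 9576 of all 19724 probe sets, and nothing is read from that count. In 5 of the 10 genes, LEFTY2, GDF15, TGFB1, TGFB2 and TGFB3, the difference between groups was larger than both gaps between replicates, as in 35.8% of all genes, and nothing is read from that count.

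**Figure D3:**
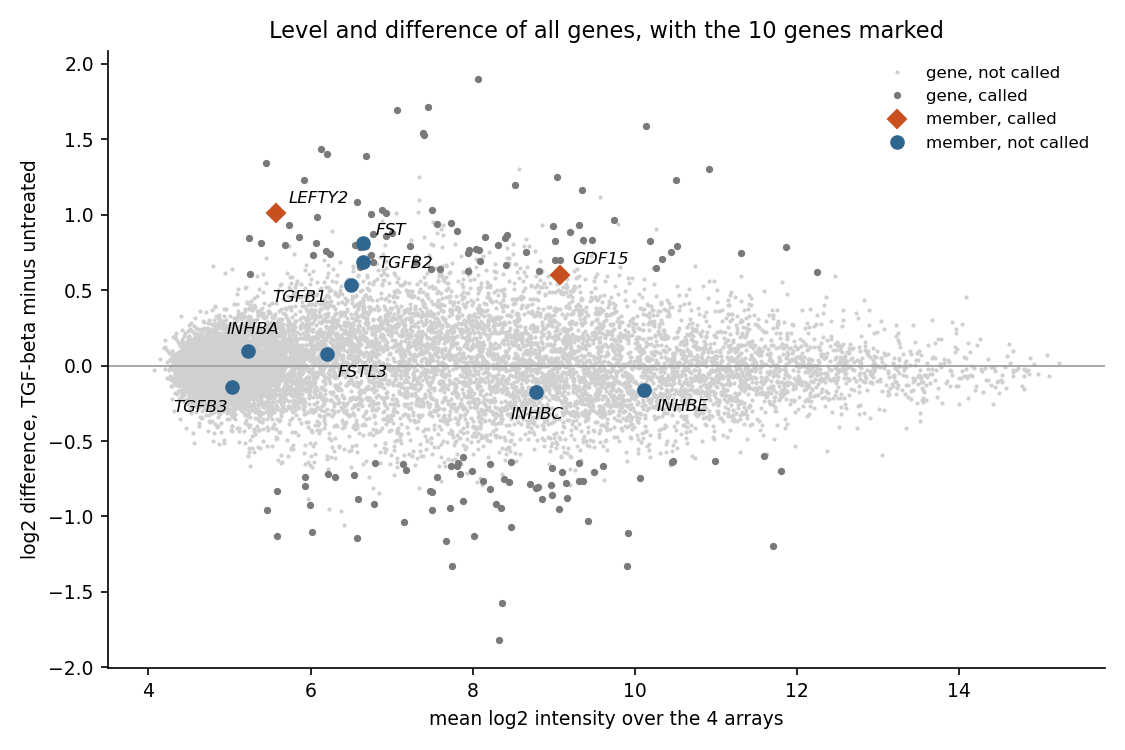
The x axis is the mean log2 intensity over the 4 arrays and the y axis the log2 difference, TGF-beta minus untreated, for all 12165 genes. LEFTY2 and GDF15 are drawn as orange diamonds, the other 8 genes as blue circles, called genes in dark grey and the rest in light grey. LEFTY2 is at 1.01 among dim genes and GDF15 at 0.60 among bright ones.

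Promoter sequences are shown for TGFB2, GDF15 and FST, which were higher on both TGF-beta arrays and have an entry with a motif match in the RefSeq promoter table (build GRCh38.p14), which holds 8 of the 10 genes. Each is the 250 bases before the transcription start, 5′ to 3′ on the gene's strand, with matches to the searched motifs in capitals. The windows are chr1:218345086-218345335, chr19:18385908-18386157 and chr5:53480379-53480628, all on the plus strand.
TGFB2: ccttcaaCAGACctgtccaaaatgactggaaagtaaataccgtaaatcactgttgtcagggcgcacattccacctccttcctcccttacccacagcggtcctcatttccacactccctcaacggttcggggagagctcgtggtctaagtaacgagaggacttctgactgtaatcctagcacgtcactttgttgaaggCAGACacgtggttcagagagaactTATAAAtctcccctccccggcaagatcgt
GDF15: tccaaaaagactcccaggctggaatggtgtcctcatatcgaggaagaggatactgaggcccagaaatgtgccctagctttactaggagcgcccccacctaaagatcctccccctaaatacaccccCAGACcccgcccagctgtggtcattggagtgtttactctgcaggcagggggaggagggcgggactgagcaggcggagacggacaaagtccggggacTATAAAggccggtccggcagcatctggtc
FST: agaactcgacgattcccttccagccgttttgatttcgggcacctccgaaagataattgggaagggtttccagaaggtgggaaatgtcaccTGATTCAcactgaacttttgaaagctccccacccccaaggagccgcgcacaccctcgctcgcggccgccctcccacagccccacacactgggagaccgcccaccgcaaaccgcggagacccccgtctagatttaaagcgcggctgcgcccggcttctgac

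The motifs searched on both strands were CAGAC, a core of SMAD-binding elements, and TGANTCA, the AP-1 site loosened to any middle base. The others were AATNNACA, a loosened form of the FOXH1 site, TGATGNAA, a C/EBP-ATF composite site, and TATAAA, the letters of the TATA box. CAGAC was found in the windows of TGFB2, TGFB3, GDF15 and INHBC, 4 of 8, and in 37.8% of all 27305 promoters. TGFB2 held it from 243 and from 53 bases before the start, and GDF15 from 125 bases before it. TATAAA was found in TGFB2, GDF15, INHBA and FSTL3, 4 of 8, beside 11.1% of all promoters. In TGFB2 and GDF15 it began 29 bases before the start. In INHBA it began 11 bases before the start, and in FSTL3 it lay on the opposite strand. TGANTCA was found in FST, 160 bases before the start, and in 6.60% of all promoters. The FST match reads TGATTCA, while the AP-1 consensus has C or G as its middle base. AATNNACA and TGATGNAA matched in 0 of the 8 windows, beside 9.90% and 3.19% of all promoters. No matches overlapped. GDF15, which was called, and TGFB3, which was lower on both TGF-beta arrays, both hold CAGAC, and the window of TGFB1 holds none of the 5 motifs. A match describes the letters only.

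The rest of the pathway was covered by 5 lists, of which 91 of 106 genes were analysed. None of the 91 was called (limma, 0 higher and 0 lower), where 1.22% of all genes were, and at an unadjusted p under 0.05 there were 8 higher and 8 lower, beside 9.35% and 8.60% of all genes. Other ligands, 23 genes, had a median of 0.05 and 0 genes at an unadjusted p under 0.05. Their smallest p were those of BMP8B, at -0.21 ± 0.11 (SE), and BMP5, at 0.17 ± 0.11, bone morphogenetic proteins with dim probe sets. Among 14 antagonists and binding proteins the median was -0.05, with 1 higher and 3 lower before adjustment (p under 0.05). A2M, alpha-2-macroglobulin, a plasma protein that traps proteases and TGF-beta, read 2329 and 1989 in TGF-beta cells and 1291 and 1439 in untreated cells. Its difference was 0.66 ± 0.13 (SE, limma adjusted p = 0.0552), with both TGF-beta arrays higher. FSTL1, a secreted protein related to follistatin, read 190.0 and 223.4 in TGF-beta cells, against 310.3 and 268.7 in untreated cells, a difference of -0.49 ± 0.13 (adjusted p = 0.109) in the direction opposite to FST.

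Genes of latency, activation and processing, 21 in all, had a median of 0.05, with 3 higher and 3 lower before adjustment (p under 0.05). THBS1, thrombospondin 1, which can release TGF-beta from its propeptide, read 340.8 and 261.9 in TGF-beta cells and 174.4 and 186.6 in untreated cells, a difference of 0.73 ± 0.14 (SE, limma adjusted p = 0.0570). Its next brightest probe set, 201109_s_at, read 113.5 and 106.3 in TGF-beta cells and 49.2 and 57.5 in untreated cells. With every probe set as its own row it was called at 1.05 ± 0.12 (SE, limma adjusted p = 0.0249). In that fit 0.426% of all 19724 probe sets were called higher. The dimmer THBS1 probe sets were not called. They had differences of 0.97 ± 0.18, 0.44 ± 0.12 and 0.17 ± 0.19 (SE), with overlapping groups on the last. FURIN, a protease that cleaves the precursors of TGF-beta, read 136.7 and 144.9 in TGF-beta cells and 99.9 and 107.8 in untreated cells, a difference of 0.44 ± 0.11 (adjusted p = 0.0941).

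Receptors and co-receptors, 14 genes, had a median of 0.05, with 3 higher and 2 lower before adjustment (p under 0.05). ACVR1, a type I receptor for activins and BMPs, read 308.7 and 320.0 in TGF-beta cells and 203.7 and 219.0 in untreated cells, a difference of 0.57 ± 0.11 (SE, limma adjusted p = 0.0549). TGFBR2, the type II receptor of TGF-beta, read 1520 and 1506 in TGF-beta cells and 1104 and 1320 in untreated cells, at 0.33 ± 0.12 (adjusted p = 0.225), with its second probe set at 0.43 ± 0.12. TGFBR1, the type I partner, was dim, with 38.9 and 41.7 in TGF-beta cells and 45.4 and 62.8 in untreated cells, and stood at -0.41 ± 0.16 (adjusted p = 0.249). ACVRL1, a type I receptor of endothelium, was below the lower quartile, at -0.39 ± 0.13 (adjusted p = 0.189). TGFBR3, the co-receptor of TGF-beta 2, stood at -0.04 ± 0.15 (95% interval -0.39 to 0.32). The activin receptors ACVR1B, ACVR2A and ACVR2B had differences of 0.20, 0.21 and 0.13. Each had a 95% interval that includes 0, with its upper bound between 0.39 and 0.47. In each both TGF-beta arrays were higher, as on 23.3% of all genes, though the nearest ACVR2B arrays were almost equal. The dimmer probe sets of ACVR1B ran from -0.06 to 0.18.

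SMADs and co-regulators, 19 genes, had a median of -0.03, with 1 higher and 0 lower before adjustment (p under 0.05). SMAD3, which carries the TGF-beta and activin signal, read 84.6 and 89.8 in TGF-beta cells and 61.9 and 59.7 in untreated cells, a difference of 0.52 ± 0.11 (SE, limma adjusted p = 0.0600). The remaining SMAD3 probe sets were dimmer and had differences of 0.24 ± 0.12, 0.15 ± 0.13 and -0.04 ± 0.11. SMAD2, its close relative, stood at -0.25 ± 0.11 (adjusted p = 0.287) on its brightest probe set. Its other probe sets had differences of -0.08 ± 0.11 and -0.09 ± 0.11, with overlapping groups. Whether the ligand and follistatin genes differ from these lists was not tested.

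**Figure D4:**
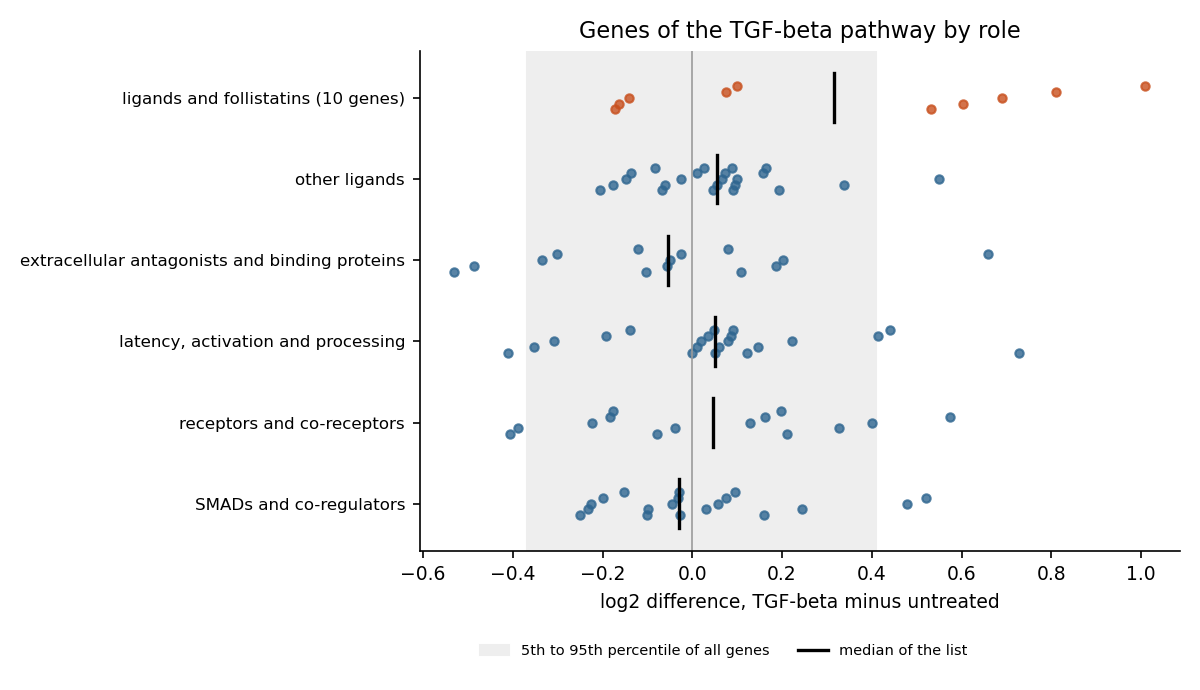
The x axis gives the log2 difference, TGF-beta minus untreated, of the 10 ligand and follistatin genes (orange, top row) and of the 5 other lists (blue), with 1 point per gene. Black bars are list medians and the grey band runs from the 5th to the 95th percentile of all genes, -0.37 to 0.41. The medians of the 5 lists lie between -0.05 and 0.05, and that of the 10 chosen genes at 0.32.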

How the data were processed

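RNA of 4 Huh-7 samples was measured on Affymetrix arrays, 2 per group. The deposited file holds a linear intensity for each probe set. Per the submitters' processing notes affy was used, with background correction, summary method and genome build not given in the sources used here. Quartiles were nearly equal between arrays, so no scaling was added. The log2 was taken without an offset. Arrays have no depth, so precision is limited by how many there are.

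Probe sets were named by the platform annotation, which can be old, with symbols updated through RefSeq (GRCh38.p14) for 19707 of the 19724 that name 1 gene. The 568 naming several genes and the 1923 naming none were left out. The brightest probe set represented each gene. Differences were fitted with limma 3.58.1 in R 4.3.3 (lmFit, eBayes, 7.41 degrees of freedom per gene) over all genes, with Benjamini-Hochberg adjustment, and the procedure was tested on simulated data. Intervals are limma's moderated 95% intervals, and the SEs are moderated in the same way. Named pathway genes are 10 fixed receptors and relatives, called genes, and the 2 smallest p of each list. Further probe sets of THBS1, SMAD2, SMAD3, ACVR1B and TGFBR2 were named with their values in view.

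The genes and lists were chosen with earlier results of these data known. The replicate numbers 1 and 2 are shared by both groups, and the alternatives include them as a block. Figures were drawn with matplotlib 3.10.9.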

Additional observations from a re-analysis of the deposited data

How the results depend on the processing

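Of 120 comparisons of a ligand or follistatin gene with an alternative, 102 kept their direction and their side of the threshold, 8 lost a call, 6 gained one and 4 turned sign. The genes called among all, 149 with the settings reported, numbered 63 under quantile normalization, 89 without genes under the lower quartile of brightness, 616 with a variance trend and 1229 with the replicate block. They numbered 162 with the mean of all probe sets and 167 with an offset of 16. With every probe set as its own row, 175 of 19724 rows were called. Leaving out 1 array gave 0 to 523, in fits where the lone array of a group is assumed to vary like the other group. Of the 10 genes, 1 was called under quantile normalization, without these dim genes, with the mean of all probe sets and with every probe set as its own row (LEFTY2 each time), 3 with a variance trend (LEFTY2, TGFB2 and GDF15) and 5 with the replicate block (TGFB1, TGFB2, LEFTY2, GDF15 and FST). Leaving out 1 array gave 0 to 3. FSTL3 ran from -0.098 to 0.25 when 1 array was left out, turning negative without TGF-beta array 1 (-0.024) and untreated array 2 (-0.098). INHBA ran from -0.098 to 0.30, turning negative without TGF-beta array 2 (-0.098) and untreated array 2 (-0.037). Of the 91 other pathway genes 1 was called with an offset of 16 (ACVR1), with the mean of all probe sets (ACVR1) and with every probe set as its own row (THBS1), 3 with a variance trend (THBS1, ACVR1 and A2M) and 13 with the replicate block, and leaving out 1 array gave 0 to 6. Of the 18 probe sets 1 was called as reported, 0 with the offset, 2 with the trend and 5 with the replicate block. For the 18 probe sets, these alternatives were chosen after seeing the data. The share of all probe sets called was not counted for them, so nothing is read from these counts. The same-numbered arrays' deviations correlated at 0.0097 over genes, the labels do not tie the numbers to a culture or day, and the block leaves 1 residual degree of freedom, so nothing is read from that fit. The causes of these changes were not tested. Signal near the floor of the arrays limits what dim genes can show.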
